A study of Mus musculus with 9 samples.

Results

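The mRNAs of 10 circadian clock genes were examined in 3T3-L1 cells, preadipocytes of the mouse that a hormone mixture turns into fat-storing cells. The genes were taken by symbol as a list of clock activators (Arntl and Clock), repressors (Per2, Per3, Cry1, Cry2 and Bhlhe41), nuclear receptor repressors (Nr1d1 and Nr1d2) and an output factor (Dbp). Each symbol matched a single gene, so that all 10 were found among the 54532 genes of the deposited tables. All 10 were tested in every comparison, and the libraries held between 37 and 1599 counts of them per gene.

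The circadian clock is a transcriptional feedback loop that runs in most cells, cultured fibroblasts and adipocytes included. ARNTL (also called BMAL1) pairs with CLOCK and activates genes through E-boxes, among them the Per and Cry genes, whose proteins return to the nucleus and inhibit the pair. A second loop joins the REV-ERB receptors, encoded by Nr1d1 and Nr1d2, which repress Arntl through ROR elements, with the ROR receptors, which activate it. DBP and its relatives TEF and HLF carry the rhythm to other genes through D-boxes, which NFIL3 occupies as a repressor. In adipose tissue the REV-ERB receptors and the clock are known for their links to adipocyte differentiation and lipid metabolism, and glucocorticoids, serum and cAMP signals are known to reset the clock of cultured cells.

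The 3 groups, of n = 3 libraries each, were compared pairwise. Undifferentiated cells were kept at confluence for 3 days, with calf serum and no hormone mixture. Differentiated cells were then given differentiation medium with lysine, fetal bovine serum, 1 μM dexamethasone (a glucocorticoid), 0.5 mM 3-isobutyl-1-methylxanthine (which raises cAMP), 1 μM rosiglitazone (a PPARγ agonist) and 10 μg/mL insulin. Lysfree cells received the same differentiation medium with no lysine added. All groups were one cell line, and nothing in the labels says that the replicates were separate experiments, so the p values speak for these libraries alone. Cells for RNA were collected after the differentiation period, and the cultures whose lysine-free medium was assayed had spent 3 days in it. The time of day at harvest and any renewal of the medium are not given in the sources used here, and each group was taken at a single time. A shift of clock phase and a change of mean level therefore cannot be told apart in these data, nor can a loss of expressing cells and less RNA per cell. The differentiation medium was also built on another DMEM, made without arginine and lysine, with arginine added back. The agents of the hormone mixture, the changes of serum and base medium and any further time in culture came together. They cannot be told apart either.

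The DNA elements of the clock are shown for the members whose promoter held one, to give the sequence beside the values that follow. RefSeq promoter windows (GRCm38.p6, 250 bases before to 50 after the start of a transcript) matched 9 of the 10 genes, with 12 windows, and not Per2. They were searched on both strands for the E-box CACGTG, the D-box as TTATGTAA or TTACGTAA, the ROR element as TAGGTCA or TGGGTCA, and the cAMP response element TGACGTCA. None of these motifs overlapped another in the windows of the 9 genes. Of 32851 promoter windows in the table, 7.15% held the E-box, 1.06% the D-box, 6.45% the ROR element and 1.79% the cAMP response element. An E-box was found for Cry1 and Bhlhe41, and a pair of D-boxes for Per3. Arntl had a ROR element in 1 of its 2 windows, 31 bases into that transcript. The windows of Clock, Cry2, Nr1d1, Nr1d2 and Dbp held none of the searched letters. That says nothing of elements elsewhere in these genes, or of variants with other letters inside the windows. The 250 bases before the start are printed for Cry1 (chr10:85185055-85185304, minus strand), Bhlhe41 (chr6:145865421-145865670, minus strand) and Per3 (chr4:151044666-151044915, minus strand), with the motif in capitals. For Arntl, the element is printed with its flanks (chr7:113207531-113207557, plus strand).
Cry1, E-box: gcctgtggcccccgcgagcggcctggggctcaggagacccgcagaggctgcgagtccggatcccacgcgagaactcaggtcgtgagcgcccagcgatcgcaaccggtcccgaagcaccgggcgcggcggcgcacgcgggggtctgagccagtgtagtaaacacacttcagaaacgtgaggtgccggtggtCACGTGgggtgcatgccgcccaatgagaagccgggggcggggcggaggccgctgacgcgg
Bhlhe41, E-box: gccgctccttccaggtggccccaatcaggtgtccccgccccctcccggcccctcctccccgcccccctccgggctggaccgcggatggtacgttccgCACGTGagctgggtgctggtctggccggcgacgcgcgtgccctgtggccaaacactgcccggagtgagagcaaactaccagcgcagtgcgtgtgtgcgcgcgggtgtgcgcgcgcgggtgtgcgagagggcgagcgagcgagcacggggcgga
Per3, D-boxes: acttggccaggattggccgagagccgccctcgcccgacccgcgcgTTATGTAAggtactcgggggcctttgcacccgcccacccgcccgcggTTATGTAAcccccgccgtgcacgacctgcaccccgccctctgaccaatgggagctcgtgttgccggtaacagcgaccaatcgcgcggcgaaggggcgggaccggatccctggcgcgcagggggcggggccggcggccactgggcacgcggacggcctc
Arntl, ROR element: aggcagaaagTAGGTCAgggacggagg

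Levels are given in deposited FPKM (fragments per kilobase of gene length, scaled to the library total). For each pair of groups the counts were fitted with the quasi-likelihood test of edgeR, and p values were adjusted over all genes tested by the Benjamini-Hochberg method. A gene is said to have changed where the adjusted p was under 0.05, and to be a differentially expressed gene (DEG) where the change was also at least 2-fold. In Differentiated vs Undifferentiated the fit used the dispersion of the trend for all genes. Its very small p values thus do not measure each gene's own spread and are not comparable with those of the Lysfree comparisons. Fitted on genes past edgeR's expression filter, the edgeR adjusted p there was 5.9e-07 for Per2, 2.8e-09 for Cry2 and 9.2e-08 for Nr1d1. Counts summed to 15880144 to 21806693 per library. Lysfree 1 stood apart from the other Lysfree libraries, with a chi-square per degree of freedom of 43.3 and 44.4 against them, where Lysfree 2 and 3 gave 2.76. Without it, Dbp was no longer a DEG in Lysfree vs Differentiated, and 3 of the 10 clock genes were. The cell state was checked with markers. All 8 adipocyte markers, such as Adipoq and Plin1, were DEGs that rose in Differentiated against Undifferentiated and fell in Lysfree against Differentiated. Their summed level was 314 to 395 FPKM in Undifferentiated, 6890 to 7250 FPKM in Differentiated and 292 to 408 FPKM in Lysfree libraries. The 8 fibroblast markers summed to 5390 to 5870, 1380 to 1390 and 2610 to 2670 FPKM in the same order. These sums hide markers that moved apart in Lysfree vs Undifferentiated. There, 2 adipocyte markers rose and 5 fell, with log2 fold changes of -3.74 to 2.18. Of the fibroblast markers 2 rose and 5 fell as well, with log2 fold changes of -4.43 to 0.97. Of all genes tested, 18% rose and 17.1% fell. Of markers of cells not expected here, those of endothelial cells summed to at most 0.272 FPKM in any library and those of epithelial cells to at most 1.72 FPKM, while the 5 macrophage markers summed to 17.3 to 21.0 FPKM in Undifferentiated, 5.59 to 5.72 FPKM in Differentiated and 8.02 to 9.32 FPKM in Lysfree libraries. The macrophage sum came from Lyz2 (means of 13.3, 0.699 and 3.49 FPKM in the 3 groups) and Cd14 (5.54, 4.93 and 5.19 FPKM). Csf1r averaged at most 0.12 FPKM and Ptprc at most 0.00114 FPKM in any group, and Adgre1 had no counts. The part of the cell states above in the changes of the clock genes was not tested.

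The clock genes did not move as a block in any comparison. In Differentiated vs Undifferentiated, 7 rose, where 23% of the 24402 genes tested did, 2 fell (23.2% of all genes), and Per3 did not pass the test. Of these, 4 were DEGs, against 21.8% of all genes tested and 32.4% of the 13869 that passed edgeR's expression filter. Nr1d1, Cry2 and Per2 were higher (10.4% of all genes) and Dbp lower (11.4%). In Lysfree vs Undifferentiated, 4 rose (18% of all genes) and 3 fell (17.1%). Dbp, which fell, was the DEG among them, where 14.3% of all genes tested, 21.4% of those past the filter and, among lower genes, 8.76% were DEGs, and 5.52% were higher. In Lysfree vs Differentiated, 3 rose (19.7% of all genes) and 6 fell (18.8%). Of these, 4 were DEGs, against 18.7% of all genes and 28% of those past the filter. Nr1d2 was higher (8.14% of all genes), and Bhlhe41, Nr1d1 and Dbp were lower (10.5%). At any fold, 46.1%, 35.1% and 38.5% of all genes tested had an adjusted p under 0.05 in the 3 comparisons, and 75.4%, 58.3% and 63.5% of those past the filter. The FPKM values of the groups did not overlap for 10, 7 and 9 of the 10 genes, against 50.9%, 43.5% and 46.6% of all genes tested, most of which had lower counts. For overlap, and for rises and falls at any fold, no share past the filter was taken. Those counts were thus not set against genes of like level. The share of clock genes called as DEGs lay near that of the genes past the filter, so the number called is no result about the clock genes. What follows concerns their directions and sizes. The median log2 fold change of the 10 genes was 0.48, 0.11 and -0.79 in the 3 comparisons, where the genes past the filter had medians of -0.01, 0.025 and 0.03. The 3 comparisons share their libraries pairwise and are not independent of each other.

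**Figure D1:**
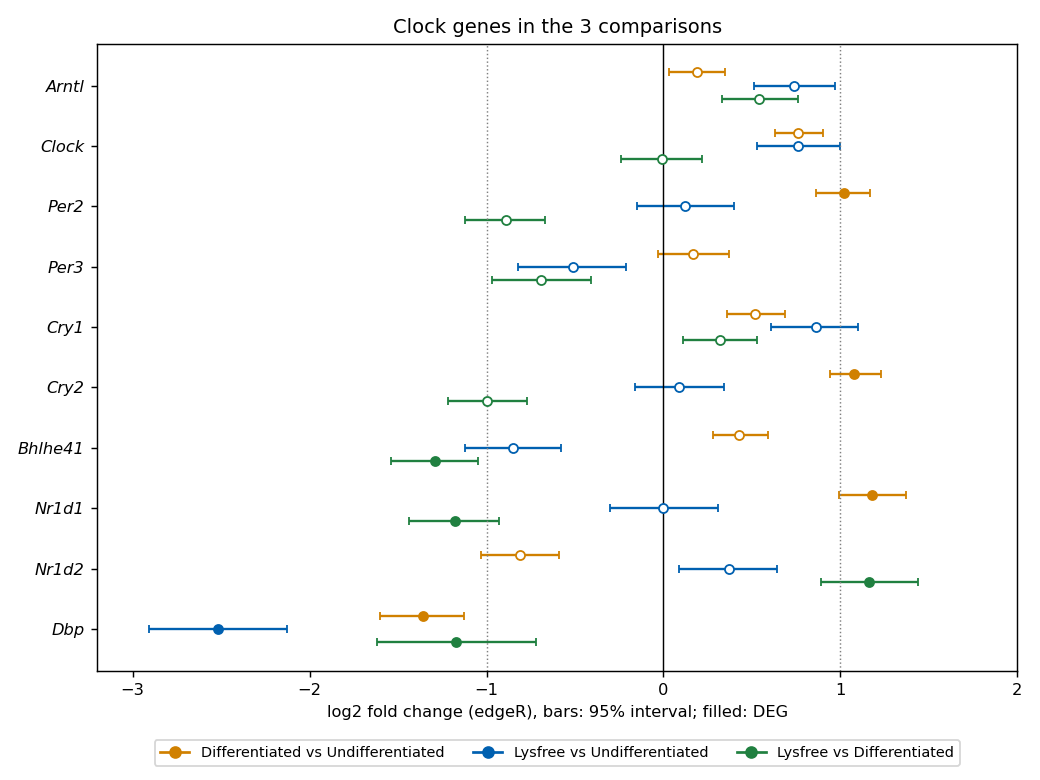
Log2 fold change (x axis) of the 10 clock genes (y axis) in the 3 comparisons, each in its own colour. Bars are 95% intervals of the edgeR fit, filled points are DEGs and dotted lines mark a 2-fold change. Nr1d1 and Nr1d2 lie on opposite sides of 0 in Differentiated vs Undifferentiated (1.18 and -0.81) and in Lysfree vs Differentiated (-1.18 and 1.16), and Dbp lies below 0 in all 3.

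Of the activators, Arntl (ENSMUSG00000055116, chromosome 7, 113207465 to 113314126), the partner of CLOCK, was highest in Lysfree cells. It stood at 4.51, 4.61 and 4.46 FPKM in the Undifferentiated, 5.52, 5.42 and 4.85 FPKM in the Differentiated and 7.43, 7.35 and 7.18 FPKM in the Lysfree libraries. The 3 groups did not overlap. Arntl rose in Lysfree against Undifferentiated by 0.74 on the log2 scale (standard error 0.11, edgeR adjusted p = 1.4e-06) and against Differentiated by 0.54 (standard error 0.10, edgeR adjusted p = 1.9e-04). The difference between Differentiated and Undifferentiated was small, at a log2 fold change of 0.19 (95% interval 0.03 to 0.35, edgeR adjusted p = 0.04). That call was lost with DESeq2 (adjusted p = 0.074), with library sizes alone (0.11), with all 9 libraries in a single fit (0.17), with the replicate number as a block (0.075) and without any of 4 single libraries, the highest adjusted p being 0.20 without Differentiated 1.

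Clock (ENSMUSG00000029238, chromosome 5, 76209868 to 76304792), the partner of ARNTL, rose in both hormone-treated groups. Its level was 3.71, 3.12 and 3.34 FPKM in Undifferentiated, 5.66, 6.11 and 5.82 FPKM in Differentiated and 6.63, 5.18 and 4.93 FPKM in Lysfree libraries. Every treated library lay above every Undifferentiated library, while the treated groups overlapped each other. The log2 fold change against Undifferentiated was 0.76 in each (standard error 0.07 in Differentiated, edgeR adjusted p = 2.6e-28, and 0.12 in Lysfree, edgeR adjusted p = 2.0e-06). Between Lysfree and Differentiated it was -0.01 (95% interval -0.24 to 0.22). Lysfree 1 held the highest value, and without it the difference became -0.17 with an edgeR adjusted p of 0.0099.

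Among the repressors, Per2, Cry2 and the receptor gene Nr1d1 shared a pattern. They were higher in Differentiated cells and near the Undifferentiated level in Lysfree cells. Per2 (ENSMUSG00000055866, chromosome 1, 91415982 to 91459324), whose protein inhibits the activating pair, was at 4.26, 3.69 and 4.97 FPKM in Undifferentiated, 8.75, 9.24 and 8.44 FPKM in Differentiated and 4.23, 4.47 and 4.89 FPKM in Lysfree libraries. All Differentiated libraries stood above the rest, and the other groups overlapped. The log2 fold change was 1.02 in Differentiated vs Undifferentiated (standard error 0.08, edgeR adjusted p = 1.6e-35) and -0.89 in Lysfree vs Differentiated (standard error 0.11, edgeR adjusted p = 8.0e-07). In Lysfree vs Undifferentiated it was 0.12 (95% interval -0.15 to 0.40, edgeR adjusted p = 0.53). The rise lay at the edge of 2-fold and fell under it without Undifferentiated 2 (0.92) or Differentiated 2 (0.98). It also fell under 2-fold with library sizes alone (0.98) and with limma on log2(FPKM + 1) (0.89).

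Cry2 (ENSMUSG00000068742, chromosome 2, 92403646 to 92434043), a cryptochrome that binds the activating pair together with the PER proteins, had 5.26, 5.09 and 5.38 FPKM in Undifferentiated, 11.0, 11.6 and 11.3 FPKM in Differentiated and 4.74, 5.67 and 5.79 FPKM in Lysfree libraries. The Differentiated libraries again lay apart from both other groups. Cry2 rose by 1.08 on the log2 scale in Differentiated vs Undifferentiated (standard error 0.07, edgeR adjusted p = 8.2e-49). In Lysfree vs Differentiated it fell by 1.00 (standard error 0.11, edgeR adjusted p = 1.3e-07), which before rounding was just under 2-fold, so that it was not counted among the DEGs. With DESeq2 and with 9 of the other alternatives it was a DEG there. In Lysfree vs Undifferentiated the log2 fold change was 0.09 (95% interval -0.16 to 0.34). An antisense gene, D930015M05Rik, shares 295 bases with the exons of Cry2, 4.67% of them, and was at 0.511, 1.15 and 0.363 FPKM on average in the 3 groups.

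Cry1 (ENSMUSG00000020038, chromosome 10, 85131700 to 85185064), the other cryptochrome and one of the members with an E-box shown above, had the highest mean of the 10 genes in each group, although Cry2 overlapped it in Differentiated cells. It stood at 7.85, 8.89 and 7.10 FPKM in Undifferentiated, 11.8, 11.8 and 11.5 FPKM in Differentiated and 14.0, 14.0 and 13.9 FPKM in Lysfree libraries. The groups did not overlap, and Lysfree was the highest. Cry1 rose by 0.52 on the log2 scale in Differentiated (standard error 0.08, edgeR adjusted p = 1.1e-09) and by 0.86 in Lysfree cells (standard error 0.12, edgeR adjusted p = 4.2e-07), both against Undifferentiated. The step from Differentiated to Lysfree was 0.32 (standard error 0.10, edgeR adjusted p = 0.015) and was lost without Differentiated 1 (edgeR adjusted p = 0.067) or Differentiated 3 (0.079).

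Per3 (ENSMUSG00000028957, chromosome 4, 151003652 to 151044665), a PER protein that the loop can run without and the member with D-boxes shown above, had the lowest mean level in Undifferentiated cells and a level near the bottom in the others. Its values were 1.97, 1.63 and 1.79 FPKM in Undifferentiated, 2.15, 2.00 and 2.04 FPKM in Differentiated and 1.37, 1.17 and 1.12 FPKM in Lysfree libraries. The Lysfree libraries were the lowest. Per3 fell in Lysfree by 0.69 on the log2 scale against Differentiated (standard error 0.13, edgeR adjusted p = 2.3e-04) and by 0.51 against Undifferentiated (standard error 0.15, edgeR adjusted p = 0.0063). The second call was lost without Undifferentiated 1 (adjusted p = 0.059). In Differentiated vs Undifferentiated the log2 fold change was 0.17 (95% interval -0.03 to 0.37, edgeR adjusted p = 0.17).

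Bhlhe41 (ENSMUSG00000030256, chromosome 6, 145858243 to 145865558) encodes DEC2, which represses by binding E-boxes, and carries an E-box itself in the sequence above. It was at 4.70, 4.29 and 4.57 FPKM in Undifferentiated, 6.08, 6.26 and 6.33 FPKM in Differentiated and 2.24, 2.37 and 2.66 FPKM in Lysfree libraries. No groups overlapped, with Differentiated above and Lysfree below the Undifferentiated level. The log2 fold change was 0.43 in Differentiated vs Undifferentiated (standard error 0.08, edgeR adjusted p = 2.6e-07) and -0.85 in Lysfree vs Undifferentiated (standard error 0.13, edgeR adjusted p = 2.5e-06). Lysfree vs Differentiated gave -1.29 (standard error 0.12, edgeR adjusted p = 9.8e-09), the largest change between these groups among the 10 members. Cry1 and Bhlhe41, the members with an E-box in the window, thus both rose in Differentiated vs Undifferentiated. They moved in opposite directions in Lysfree against either other group. The antisense gene Gm43909 covers 19.0% of the exon bases of Bhlhe41 and was at 0.124, 0.290 and 0.0824 FPKM in the 3 groups.

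The REV-ERB genes, which encode paralogous receptors that repress Arntl, moved in opposite directions in both comparisons that involve Differentiated cells. Nr1d1 (ENSMUSG00000020889, chromosome 11, 98767932 to 98775333) was at 4.80, 3.97 and 4.46 FPKM in Undifferentiated, 9.94, 9.75 and 10.8 FPKM in Differentiated and 4.18, 4.23 and 4.44 FPKM in Lysfree libraries. Its Differentiated libraries stood alone, above groups that overlapped. Nr1d1 rose by 1.18 on the log2 scale in Differentiated vs Undifferentiated (standard error 0.10, edgeR adjusted p = 1.9e-33). In Lysfree vs Differentiated it fell by 1.18 (standard error 0.12, edgeR adjusted p = 6.3e-08). Lysfree vs Undifferentiated gave 0.00 (95% interval -0.30 to 0.31).

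Nr1d2 (ENSMUSG00000021775, chromosome 14, 18204054 to 18239127) had 3.58, 3.51 and 3.01 FPKM in Undifferentiated, 2.06, 1.93 and 1.92 FPKM in Differentiated and 4.60, 4.10 and 3.96 FPKM in Lysfree libraries. The 3 groups did not overlap, and here the Differentiated libraries were the lowest. Nr1d2 fell in Differentiated vs Undifferentiated by 0.81 on the log2 scale (standard error 0.11, edgeR adjusted p = 2.6e-12). In Lysfree vs Differentiated it rose by 1.16 (standard error 0.13, edgeR adjusted p = 2.3e-07). The rise of 0.37 in Lysfree vs Undifferentiated (standard error 0.14, edgeR adjusted p = 0.032) was lost without any one of Undifferentiated 1, 2 or 3 or Lysfree 2, with an adjusted p of at most 0.19. That call was also lost with limma on log2(FPKM + 1) (limma adjusted p = 0.089) and on log2(FPKM + 0.1) (limma adjusted p = 0.079). Nr1d2 overlaps no annotated gene. Nr1d1 shares 263 bases, 8.55% of its exon bases, with Thra on the opposite strand. Thra was at 53.2, 29.6 and 22.2 FPKM in the 3 groups, well above Nr1d1 itself, and fell in Differentiated against Undifferentiated (log2 fold change -0.87, edgeR adjusted p = 2.6e-55), where Nr1d1 rose. In Lysfree vs Differentiated both fell, Thra by 0.35 on the log2 scale (edgeR adjusted p = 0.013). The strand setting of the counting is not given in the sources used here, so reads of such overlaps cannot be assigned to a strand.

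Dbp (ENSMUSG00000059824, chromosome 7, 45705088 to 45710203), the PAR bZIP output factor and a direct target of the activating pair, showed the widest range of the 10 genes. Its highest group mean was 5.96 times its lowest, where the other 9 ranged from 1.62 times (Arntl) to 2.57 times (Bhlhe41). Dbp was at 6.38, 6.21 and 6.09 FPKM in Undifferentiated, 2.57, 2.33 and 2.52 FPKM in Differentiated and 0.703, 1.33 and 1.10 FPKM in Lysfree libraries. The groups were apart, in falling order. The log2 fold change was -1.36 in Differentiated (standard error 0.12, edgeR adjusted p = 8.3e-29) and -2.52 in Lysfree (standard error 0.19, edgeR adjusted p = 9.3e-13), both against Undifferentiated. Lysfree vs Differentiated gave -1.17 (standard error 0.22, edgeR adjusted p = 1.4e-04). The lowest value was in Lysfree 1, with 37 counts. Without that library the last change was -0.98, still past the test (edgeR adjusted p = 2.1e-07) but under 2-fold. Sphk2 covers 18.0% of the exon bases of Dbp on the opposite strand and was at 5.43, 10.3 and 7.64 FPKM in the 3 groups, an order unlike that of Dbp.

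**Figure D2:**
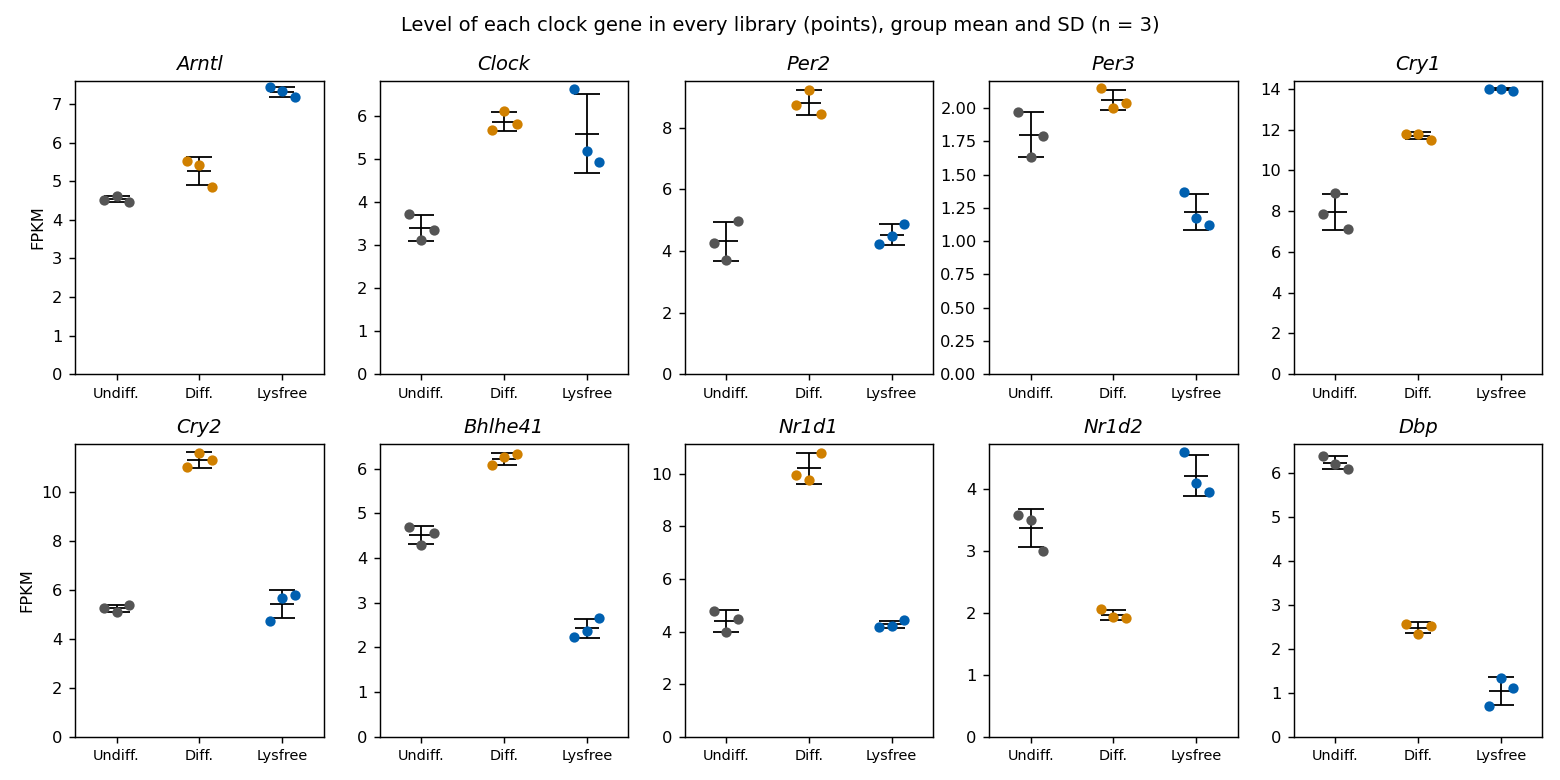
FPKM (y axis, from 0) of each clock gene in every library (points) of the Undifferentiated, Differentiated (Diff.) and Lysfree groups, with the group mean and SD (n = 3). Per2, Cry2 and Nr1d1 stand out in the Differentiated group (8.44 to 9.24, 11.0 to 11.6 and 9.75 to 10.8 FPKM), Arntl and Cry1 are highest in Lysfree, and Dbp falls from 6.09 to 6.38 FPKM to 0.703 to 1.33 FPKM.

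On the FPKM scale, which allows levels to be compared between genes, the order of the members changed with the group. In Undifferentiated cells Cry1 led at 7.95 ± 0.894 FPKM (SD, n = 3), followed by Dbp at 6.23 ± 0.145 and Cry2 at 5.24 ± 0.146 FPKM. Arntl, Bhlhe41, Nr1d1 and Per2 followed at 4.53, 4.52, 4.41 and 4.31 FPKM, and each of these overlapped the next. Clock and Nr1d2 also overlapped, at 3.39 and 3.37 FPKM, and Per3 was apart at 1.80 FPKM. In Differentiated cells Cry1 (11.7 ± 0.179 FPKM) and Cry2 (11.3 ± 0.315 FPKM) led and overlapped, followed without overlap by Nr1d1 at 10.2 and Per2 at 8.81 FPKM. Bhlhe41 (6.22 FPKM) overlapped Clock (5.86 FPKM), Arntl was at 5.26 and Dbp at 2.48 FPKM, and Per3 (2.06 FPKM) overlapped Nr1d2 (1.97 FPKM) at the bottom. In Lysfree cells Cry1 (14.0 ± 0.0379 FPKM) and Arntl (7.32 ± 0.127 FPKM) led and stood apart. Clock, Cry2, Per2, Nr1d1 and Nr1d2 formed a run from 5.58 to 4.22 FPKM in which each overlapped the next. Bhlhe41 was at 2.43 FPKM, and Per3 (1.22 FPKM) overlapped Dbp (1.05 FPKM).

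Ratios between members within a library do not depend on how libraries are scaled to each other. The log2 ratio of Nr1d1 to Arntl, which encode repressor and target in the second loop, was 0.09, -0.22 and 0.00 in Undifferentiated, 0.85, 0.85 and 1.16 in Differentiated and -0.83, -0.80 and -0.69 in Lysfree libraries. The groups did not overlap, and Lysfree and Differentiated lay on opposite sides of Undifferentiated. The mean differed by 0.99 between Differentiated and Undifferentiated, by -0.73 between Lysfree and Undifferentiated and by -1.73 between Lysfree and Differentiated. The log2 ratio of Dbp to Arntl, target to activator, was 0.46 ± 0.04 in Undifferentiated, -1.09 ± 0.14 in Differentiated and -2.86 ± 0.49 in Lysfree libraries (SD, n = 3). Its means differed by -1.55, -3.32 and -1.77 in the 3 comparisons in the same order. Each of these 6 differences had p = 0.1 by a two-sided exact permutation test, the smallest p that 3 libraries against 3 allow, and hence could not reach 0.05, before or after adjustment.

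The paralog ratios were added after the values were seen and are given as a description. The log2 ratio of Nr1d1 to Nr1d2 was 0.39 ± 0.20 in Undifferentiated, 2.37 ± 0.11 in Differentiated and 0.02 ± 0.15 in Lysfree libraries (SD, n = 3). Nr1d1 thus stood well above Nr1d2 in Differentiated cells, and near it in Lysfree cells. For Cry1 to Cry2 the log2 ratio was 0.60 ± 0.20, 0.05 ± 0.04 and 1.38 ± 0.16 in the same groups. The cryptochromes were level in Differentiated cells and furthest apart in Lysfree cells.

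**Figure D3:**
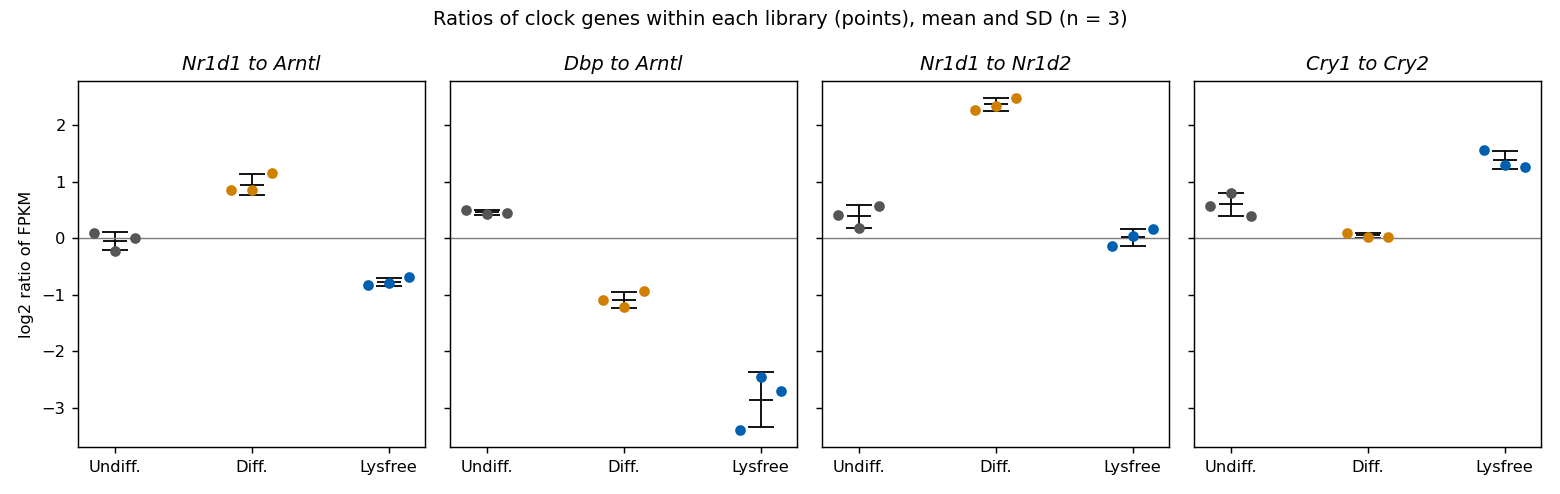
Log2 ratio of FPKM (y axis) between pairs of clock genes within each library (points) of the 3 groups, with mean and SD (n = 3) and a line at 0, where the genes are equal. The groups are separate for each pair, and the Differentiated group is the highest for Nr1d1 to Arntl and Nr1d1 to Nr1d2 (means 0.95 and 2.37) and the lowest for Cry1 to Cry2 (0.05).

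Outside the 10 members, 17 other genes of the clock were taken as a list. In Differentiated vs Undifferentiated 6 rose and 1 fell as DEGs, where 10.4% of all genes tested rose and 11.4% fell. In Lysfree vs Undifferentiated 3 rose and 2 fell (5.52% and 8.76% of all genes), and in Lysfree vs Differentiated 2 rose and 3 fell (8.14% and 10.5%). The median log2 fold change of the list was 0.40, 0.07 and -0.25 in the 3 comparisons. All 4 repressors of this list, Bhlhe40, Nfil3, Ciart and Per1, rose in both treated groups against Undifferentiated, although Per1 was not a DEG in Lysfree. Bhlhe40, which encodes DEC1, the paralog of DEC2, went from 21.5 ± 0.772 FPKM in Undifferentiated to 58.9 ± 0.728 FPKM in Differentiated and 47.5 ± 1.29 FPKM in Lysfree cells (SD, n = 3). Its log2 fold changes against Undifferentiated were 1.43 and 1.19 (edgeR adjusted p = 5.7e-142 and 4.7e-12). Nfil3, the repressor at D-boxes, had 10.1 ± 0.400, 30.9 ± 1.06 and 38.3 ± 2.58 FPKM, with log2 fold changes of 1.59 and 1.97 (edgeR adjusted p = 5.1e-86 and 1.4e-15). Ciart, a repressor of the activating pair, went from 1.20 ± 0.137 to 7.57 ± 0.135 and 4.58 ± 1.18 FPKM, with log2 fold changes of 2.64 and 1.99 (edgeR adjusted p = 2.3e-67 and 2.7e-09). Lysfree 1 held 129 counts of Ciart, and Lysfree 2 and 3 held 237 and 219.

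Per1, the PER gene known for its direct response to glucocorticoids and cAMP, was at 11.1 ± 0.512 FPKM in Undifferentiated, 26.9 ± 0.218 FPKM in Differentiated and 14.3 ± 1.17 FPKM in Lysfree cells. Its log2 fold change was 1.26 in Differentiated (edgeR adjusted p = 1.4e-92) and 0.42 in Lysfree (edgeR adjusted p = 0.0017), both against Undifferentiated, and -0.84 in Lysfree vs Differentiated (edgeR adjusted p = 1.7e-07). Per1 and Per2 were therefore both higher in Differentiated than in Lysfree cells. In Lysfree cells Bhlhe40 lay above and Bhlhe41 below the Undifferentiated level.

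Tef, the PAR bZIP relative of Dbp, fell in the same order as Dbp. It was at 19.1 ± 0.498 FPKM in Undifferentiated, 13.8 ± 0.919 FPKM in Differentiated and 4.16 ± 0.287 FPKM in Lysfree cells. Its log2 fold change was -0.50 in Differentiated vs Undifferentiated, -2.15 in Lysfree vs Undifferentiated and -1.66 in Lysfree vs Differentiated (edgeR adjusted p = 2.9e-17, 2.1e-17 and 1.9e-11). Hlf, the other relative, had at most 6 counts in any library. Rora, a ROR receptor gene, was at 2.01 ± 0.222, 3.14 ± 0.202 and 1.71 ± 0.178 FPKM, and was not a DEG in any comparison. Npas2, a paralog of Clock, held 33, 26 and 28 counts in Differentiated libraries and at most 2 in any other library, at least 10.8-fold higher than Undifferentiated and at least 9.91-fold higher than Lysfree, taking 3 counts per library as the floor.

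Among the genes for kinases and ubiquitin ligases that act on PER and CRY proteins, Fbxl21, whose product is a ubiquitin ligase subunit that binds CRY proteins, was at 0.626, 0.208 and 0.722 FPKM in the 3 groups. It fell in Differentiated vs Undifferentiated (log2 fold change -1.59, edgeR adjusted p = 1.2e-07) and rose in Lysfree vs Differentiated (log2 fold change 1.83, edgeR adjusted p = 1.6e-04). Csnk1d, a kinase of the PER proteins, did not pass the test in any comparison, and its log2 fold changes lay between -0.02 and 0.08.

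**Figure D4:**
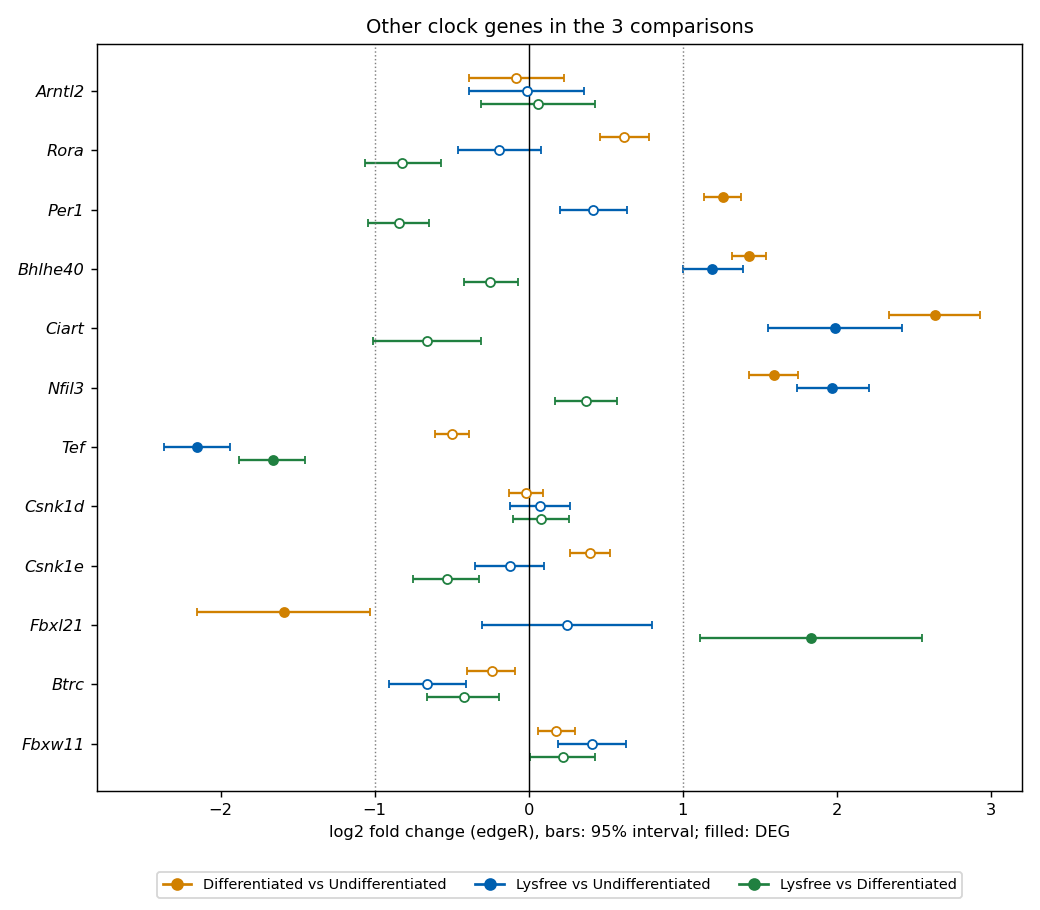
Log2 fold change (x axis) of other clock genes (y axis) in the 3 comparisons, with 95% intervals and filled points for DEGs (not all genes of the list are drawn). Bhlhe40, Ciart and Nfil3 are DEGs above 0 in both comparisons with Undifferentiated (1.19 to 2.64), Tef is below 0 in all 3, and Csnk1d stays near 0.

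Of 5 genes known as clock-controlled in many tissues, 1 rose and 1 fell as DEGs in Differentiated vs Undifferentiated, 1 rose in Lysfree vs Undifferentiated, and 1 rose and 1 fell in Lysfree vs Differentiated, too few genes to set against the shares over all genes given above. Nampt, the enzyme of NAD salvage, was at 25.5 ± 1.51 FPKM in Undifferentiated, 102 ± 2.67 FPKM in Differentiated and 46.8 ± 7.99 FPKM in Lysfree cells. Its log2 fold change was 1.97 in Differentiated vs Undifferentiated and -1.06 in Lysfree vs Differentiated (edgeR adjusted p = 3.7e-286 and 1.7e-08). Tspan4, a tetraspanin, moved the other way, at 94.7 ± 0.387, 32.4 ± 1.29 and 92.6 ± 3.03 FPKM in the 3 groups. Usp2, a ubiquitin protease, rose in both treated groups, at 1.36 ± 0.0917, 2.65 ± 0.116 and 3.17 ± 0.419 FPKM in the 3 groups. Its log2 fold change against Undifferentiated was 0.94 in Differentiated (edgeR adjusted p = 2.4e-11) and 1.27 in Lysfree (edgeR adjusted p = 1.1e-07). Lysfree vs Differentiated did not pass the test (log2 fold change 0.32, edgeR adjusted p = 0.081). The other 2, Wee1 and Tsc22d3, changed in all 3 comparisons but stayed under 2-fold.

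Targets of the hormone mixture that also act on the clock were counted beside the members. Of 10 glucocorticoid targets, which include Per1 and Tsc22d3, 5 rose and 1 fell as DEGs in Differentiated vs Undifferentiated (10.4% and 11.4% of all genes tested), 1 rose in Lysfree vs Undifferentiated (5.52% of all genes), and 2 fell in Lysfree vs Differentiated (10.5%). Zbtb16 rose by 1.97 on the log2 scale in Differentiated and Sgk1 fell by 1.15. Of 10 cAMP targets, 1 rose as a DEG in Differentiated vs Undifferentiated, against 10.4% of all genes tested. In Lysfree vs Undifferentiated 7 rose and 1 fell (5.52% and 8.76% of all genes), and in Lysfree vs Differentiated 3 rose and 1 fell (8.14% and 10.5%). Nr4a1 and Nr4a3 had log2 fold changes of 1.59 and 3.57 in Lysfree vs Undifferentiated. Nr4a3 held at most 3 counts in any Undifferentiated library, the floor, and 39, 18 and 22 in Lysfree libraries, so the size of its change is uncertain. The part of these signals in the levels of the clock genes was not tested.

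For each member that was a DEG in at least 1 comparison, similar profiles were sought among genes other than the members. The 2 closest genes were found by the mean absolute difference of centred log2 CPM over the 9 libraries. Nr1d1 was closest to Rab3ip (0.0627) and Coq6 (0.0640), and Nr1d2 to Zfp944 (0.0570) and Crim1 (0.0593). Per2 was closest to 1700017B05Rik (0.0768) and Ago2 (0.0811), Cry2 to Dnajc11 (0.0292) and Zfp703 (0.0473), and Bhlhe41 to Col6a1 (0.0569) and Ppp2r5d (0.0638). The genes nearest to Dbp, Smim1 (0.120) and Tnfsf13 (0.128), lay further from it than any other of these neighbours from its member. No other clock gene of the lists was among these neighbours. The members were left out of the search beforehand, so it cannot show how close they lie to each other.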

How the data were processed

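Poly A RNA of 9 libraries of 3T3-L1 cells had been sequenced as paired-end reads. The authors removed low-quality and adaptor reads and mapped the rest to mm10 with HISAT2. The submitters' processing notes name HISAT2 2.0.5 and featureCounts 1.5.0-p3. The strand setting, the annotation release and the tool for FPKM are not given in the sources used here. The authors deposited raw counts per gene, and FPKM, which equalled counts per gene length and library total times a constant of 0.932 to 1.04 per library. Start and end of all 10 genes were the same in GENCODE vM21 (GRCm38), from which overlaps were taken.

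Groups came from the sample titles. Each comparison was fitted on its 6 libraries with edgeR 4.0.16 (glmQLFit and glmQLFTest, TMM) in R 4.3.3, over genes with a count above 0. Standard errors are the log2 fold change divided by the square root of F. In Differentiated vs Undifferentiated the fit gave all genes the dispersion of the trend, which makes its p values very small. Ratios were compared with exact permutation tests (scipy 1.17.1). Alternatives were DESeq2 1.42.0, other scalings and filters, limma 3.58.1 on log2 FPKM, a replicate block and leaving out each library. The edgeR step was tested on simulated data. At the totals of 15880144 to 21806693 counts, the floor was set at 3 counts per library, which covers counting error only. No pair of replicates was a duplicate (chi-square per degree of freedom of at least 2.76).

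The members and lists were chosen with earlier results of these data known. The genes named are the members, genes of the clock lists that were DEGs, the first 2 DEGs of each hormone list, the 2 nearest profiles per member and genes overlapping a member. Genes named outside this rule (Arntl2 in a plot, Csnk1d, Rora, Hlf, Wee1 and Tsc22d3) were chosen after their values were seen. Some genes of the list of other clock genes are counted but not reported here by name.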

Additional observations from a re-analysis of the deposited data

Results flagged for a closer look

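Nr1d2 and Bhlhe41 moved in opposite directions in the treated groups when each was compared with Undifferentiated cells, and the difference between the treated groups passed the edgeR test. For Nr1d2 the log2 fold change was -0.81 in Differentiated and 0.37 in Lysfree, a difference of 1.16 (edgeR adjusted p = 2.3e-07). Its rise in Lysfree, however, was lost without any one of 4 libraries and with limma on log2 FPKM. For Bhlhe41 the values were 0.43 and -0.85, a difference of -1.29 (edgeR adjusted p = 9.8e-09). In both genes every library of a group lay on one side of all Undifferentiated libraries.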

How the results depend on the processing

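Limits lie in the single time point, the 3 libraries per group and the 2-fold threshold, near which Per2 and Cry2 lay. Of 420 values of the clock genes under alternatives, 389 kept their direction and their call at 2-fold, 8 lost and 10 gained that call, and 13 changed sign, all of them near 0. Without regard to fold, the call at an adjusted p under 0.05 was lost in 17 of the 420 and gained in 1, and 371 kept direction and both calls. Those that changed sign were Nr1d1 in Lysfree vs Undifferentiated, at -0.01 with DESeq2 and with median-of-ratios size factors, -0.03 with filterByExpr, with limma on log2(FPKM + 1) and without Lysfree 3, -0.02 with all 9 libraries, -0.04 with limma on log2(FPKM + 0.1), -0.07 without Undifferentiated 2 and 0.00 without Lysfree 1, and Clock in Lysfree vs Differentiated, at 0.06 with library sizes alone, 0.02 without Differentiated 2, 0.04 without Lysfree 2 and 0.07 without Lysfree 3 (-0.17, past the test at any fold, without Lysfree 1). With limma on log2(FPKM + 1), which shrinks the change of low genes, the clock DEGs numbered 2 in Differentiated vs Undifferentiated and 2 in Lysfree vs Differentiated, and all DEGs 2726, 1474 (Lysfree vs Undifferentiated) and 2198. Without a fold threshold the clock genes called were 9, 7 and 9 and all genes 11260, 8428 and 9280 in the order of the report, against 5329, 3426 and 4507 DEGs. With 1 library left out, the clock DEGs ranged from 3 to 4, stayed at 1 and ranged from 3 to 5, and all DEGs ranged from 5037 to 5161, 3093 to 3448 and 4120 to 4485. The ratio of Nr1d1 to Arntl ranged from 0.89 to 1.06, -0.82 to -0.67 and -1.78 to -1.62, and that of Dbp to Arntl from -1.62 to -1.48, -3.51 to -3.04 and -1.97 to -1.50. Libraries with the same number did not deviate together (r of -0.084 to 0.115 across genes). With the replicate block the clock DEGs numbered 4, 1 and 5, and all DEGs 4837, 3179 and 4173.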
